A study of Homo sapiens with 9 samples.

Results

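Homologous recombination, the Fanconi anemia pathway and mismatch repair are represented here by 37 genes taken by name from the lists of sequenced genes, out of 27615 genes in the longest list. They were measured by RNA sequencing in MDA-MB-231 cells, an established human triple-negative breast cancer line. The cells had received DMSO as vehicle (3 libraries), rimonabant, a cannabinoid receptor CB1 antagonist (3 libraries), or TXX-1-10, a compound derived from rimonabant (3 libraries), and no group carried a genetic change. The dose and the duration given to the sequenced cells are not stated in the sources used here, so matched doses of the compounds cannot be assumed, and nothing says whether replicates were separate cultures. The p-values below therefore measure only the spread between these libraries, which may be technical.

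Homologous recombination copies lost sequence back from the sister chromatid, and for that reason it works mainly in S and G2 phase. The MRE11-RAD50-NBN complex senses a break, RBBP8 (CtIP), EXO1 and BLM cut back one strand, BRCA1, PALB2 and BRCA2 prepare the cut end for strand invasion, and the joined molecules are then dissolved or cut. The Fanconi core complex ubiquitinates FANCD2 and FANCI at crosslinked DNA and feeds into the same steps, ATM and ATR signal the damage, and mismatch repair corrects copying errors behind the replication fork. Many of these genes are transcribed most strongly in dividing cells, and BRCA1 and BRCA2 are known as inherited breast cancer genes.

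Each library is a list of genes with a read count and an FPKM value (fragments per kilobase of gene, scaled to a total for the library, a level per length). The totals behind the FPKM values, used here as library sizes, were 17078370 to 19277808. They are not plain counts of reads. The listed counts exceed the total in vehicle replicate 1 (17492638 against 17078370) and vehicle replicate 3 (17383157 against 17221591). The lists follow one common order, close to that of the mean count, and end at different points: all 37 genes are listed for 7 libraries, 35 for vehicle replicate 2, which lacks RAD54B and RAD50, and 11 for rimonabant replicate 1, whose list stops after 4237 genes. A missing line is no zero. Changes were therefore fitted with edgeR on the 9395 genes of the 8 libraries other than rimonabant replicate 1, which leaves 2 rimonabant libraries, and RAD54B and RAD50 were fitted on 11733 genes of the 7 libraries that list them. In 2 libraries, rimonabant replicate 1 and TXX-1-10 replicate 3, longer genes had fewer counts than in the group's other replicates, across genes (Spearman's rho of -0.694 and -0.693). Markers of the line (VIM, CD44, AXL, EGFR, CAV1, FOSL1) summed to 751 to 966 FPKM in each library. Fitted singly against vehicle, their log2 fold changes ranged from -2.7 to 0.25 under TXX-1-10 and from -1.54 to 0.25 under rimonabant. In the 4 libraries that list 6 luminal markers, these summed to 5.77 to 7.09 FPKM. The highest luminal marker stood at 4.49 to 5.37 FPKM there, and the luminal marker CDH1 had no count.

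The letters around the transcription starts are shown first, since the genes moved together. RefSeq (GRCh38.p14) gave a window from 250 bases before to 50 after the start for 33 of the 37 genes, with no entry for RAD54B, FANCI, NBN and RMI2, and the windows used for RBBP8 and MSH6 lie 135067 and 87615 bases from the outer gene end that the lists give. For CHEK1, RAD50, ATM and TOPBP1 this distance is 1088, 958, 583 and 439 bases. RefSeq holds more than 1 entry for 12 of the genes, and only 1 window per gene was searched. The 3 genes with the largest fall under TXX-1-10 are followed by the 2 with the smallest change, each from 250 bases before to 30 after the start on the gene's own strand. Capitals mark matches, on either strand, to an E2F site (TTTCCCGC or TTTGGCGC), to the CHR element of late cell cycle genes (TTTGAA) and to an NF-Y box (CCAAT). No other form of an E2F site was searched. Their positions are chr17:61863499-61863778, minus strand for BRIP1, chr1:46247438-46247717, plus strand for RAD54L, chr1:241847954-241848233, plus strand for EXO1, chr16:23641281-23641560, minus strand for PALB2 and chr7:6009077-6009356, minus strand for PMS2.
BRIP1: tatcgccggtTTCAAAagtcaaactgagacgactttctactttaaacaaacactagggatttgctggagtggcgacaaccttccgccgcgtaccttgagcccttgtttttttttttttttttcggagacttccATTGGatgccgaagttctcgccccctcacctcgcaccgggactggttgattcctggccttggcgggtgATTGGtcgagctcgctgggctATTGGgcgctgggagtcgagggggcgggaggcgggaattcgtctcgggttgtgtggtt
RAD54L: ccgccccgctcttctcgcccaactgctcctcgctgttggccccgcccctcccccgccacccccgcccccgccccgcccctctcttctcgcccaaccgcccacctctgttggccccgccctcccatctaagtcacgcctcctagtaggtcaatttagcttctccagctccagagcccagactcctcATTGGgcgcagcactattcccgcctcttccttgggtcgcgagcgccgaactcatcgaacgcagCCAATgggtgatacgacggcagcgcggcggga
EXO1: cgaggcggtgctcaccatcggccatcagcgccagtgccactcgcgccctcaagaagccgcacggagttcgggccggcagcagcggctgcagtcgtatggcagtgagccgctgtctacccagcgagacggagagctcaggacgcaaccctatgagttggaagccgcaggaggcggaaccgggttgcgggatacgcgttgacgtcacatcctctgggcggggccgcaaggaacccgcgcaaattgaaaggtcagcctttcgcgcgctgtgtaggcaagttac
PALB2: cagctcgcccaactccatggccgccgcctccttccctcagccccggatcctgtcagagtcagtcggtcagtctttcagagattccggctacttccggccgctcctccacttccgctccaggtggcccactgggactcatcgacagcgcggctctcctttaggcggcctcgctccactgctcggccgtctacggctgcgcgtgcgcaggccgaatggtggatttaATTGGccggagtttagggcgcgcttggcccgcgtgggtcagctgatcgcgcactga
PMS2: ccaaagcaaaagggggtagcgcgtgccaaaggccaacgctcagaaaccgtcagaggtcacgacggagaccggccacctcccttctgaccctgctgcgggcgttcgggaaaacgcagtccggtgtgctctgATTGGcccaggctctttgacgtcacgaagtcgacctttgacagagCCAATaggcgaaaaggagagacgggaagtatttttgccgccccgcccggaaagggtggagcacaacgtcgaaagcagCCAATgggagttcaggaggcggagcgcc

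XRCC2 (chr7:152676112-152676391, minus strand), FANCD2 (chr3:10026187-10026466, plus strand) and MSH6 (chr2:47782895-47783174, plus strand) are shown because they hold the only E2F matches among the 33 windows, and were picked after that was seen.
XRCC2: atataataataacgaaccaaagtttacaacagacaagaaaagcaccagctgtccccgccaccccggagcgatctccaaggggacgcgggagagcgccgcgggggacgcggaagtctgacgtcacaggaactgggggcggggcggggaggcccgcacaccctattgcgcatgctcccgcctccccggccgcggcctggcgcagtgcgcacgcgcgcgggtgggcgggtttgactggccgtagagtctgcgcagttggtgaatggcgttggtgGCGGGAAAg
FANCD2: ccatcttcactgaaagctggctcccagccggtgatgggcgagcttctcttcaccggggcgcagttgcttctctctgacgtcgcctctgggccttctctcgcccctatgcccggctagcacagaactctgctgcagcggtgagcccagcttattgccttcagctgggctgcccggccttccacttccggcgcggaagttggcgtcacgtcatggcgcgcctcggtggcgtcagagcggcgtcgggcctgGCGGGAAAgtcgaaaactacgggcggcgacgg
MSH6: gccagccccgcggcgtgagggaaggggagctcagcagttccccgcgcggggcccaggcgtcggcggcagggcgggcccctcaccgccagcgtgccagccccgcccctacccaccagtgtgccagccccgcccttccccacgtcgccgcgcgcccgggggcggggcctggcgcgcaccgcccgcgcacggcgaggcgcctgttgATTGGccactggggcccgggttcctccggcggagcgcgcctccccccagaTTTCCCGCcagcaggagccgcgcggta

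E2F letters stood in 3 of the 33 windows (9.09%) and in 2.27% of 35116 RefSeq promoter windows of the same length. CCAAT stood in 15 windows (45.5%, against 34.6% of all), and TTTGAA in 2, those of BRIP1 and ATM (6.06%, against 15.2%). PALB2 and PMS2, whose levels barely moved, hold CCAAT as BRIP1 and RAD54L do, and the EXO1 window holds none of the letters searched. A match is a description of the sequence and says nothing about binding in these cells.

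TXX-1-10 lowered nearly the whole set. Of the 35 genes in the 8-library fit, 32 fell against vehicle at an adjusted p under 0.05 (Benjamini-Hochberg over all 9395 genes), where 40.6% of all genes fell. ATM alone rose, where 34.6% of all genes did, and PALB2 and PMS2 did not pass the test. At a fall of at least 2-fold the count was 21 of 35, against 7.42% of all genes. The median log2 fold change of the 35 genes was -1.08, beside -0.04 for all genes. The 37 genes were chosen with earlier results of these data known, so these comparisons with all genes are description only. In 34 of the 37 genes, RAD54B included, every TXX-1-10 library lay below every vehicle library, which held for 41.3% of the 9395 genes. Summed over the 35 genes, the level was 335 to 352 FPKM in the vehicle libraries, 337 to 344 in 2 rimonabant libraries and 155 to 160 under TXX-1-10.

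Markers of dividing cells moved in the same libraries. All 32 S phase markers fell under TXX-1-10 (median log2 fold change -1.48), and so did all 41 tested markers of G2 and M phase (-1.91), beside 40.6% of all genes. Their summed levels went from 1010 to 1040 FPKM in vehicle to 399 to 441 FPKM under TXX-1-10 for S phase, and from 2040 to 2130 FPKM to 668 to 716 FPKM for G2 and M phase. Their part in the fall of the repair genes was not tested, and in these bulk libraries fewer cells in S and G2 phase and less of a transcript per cell cannot be told apart.

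**Figure D1:**
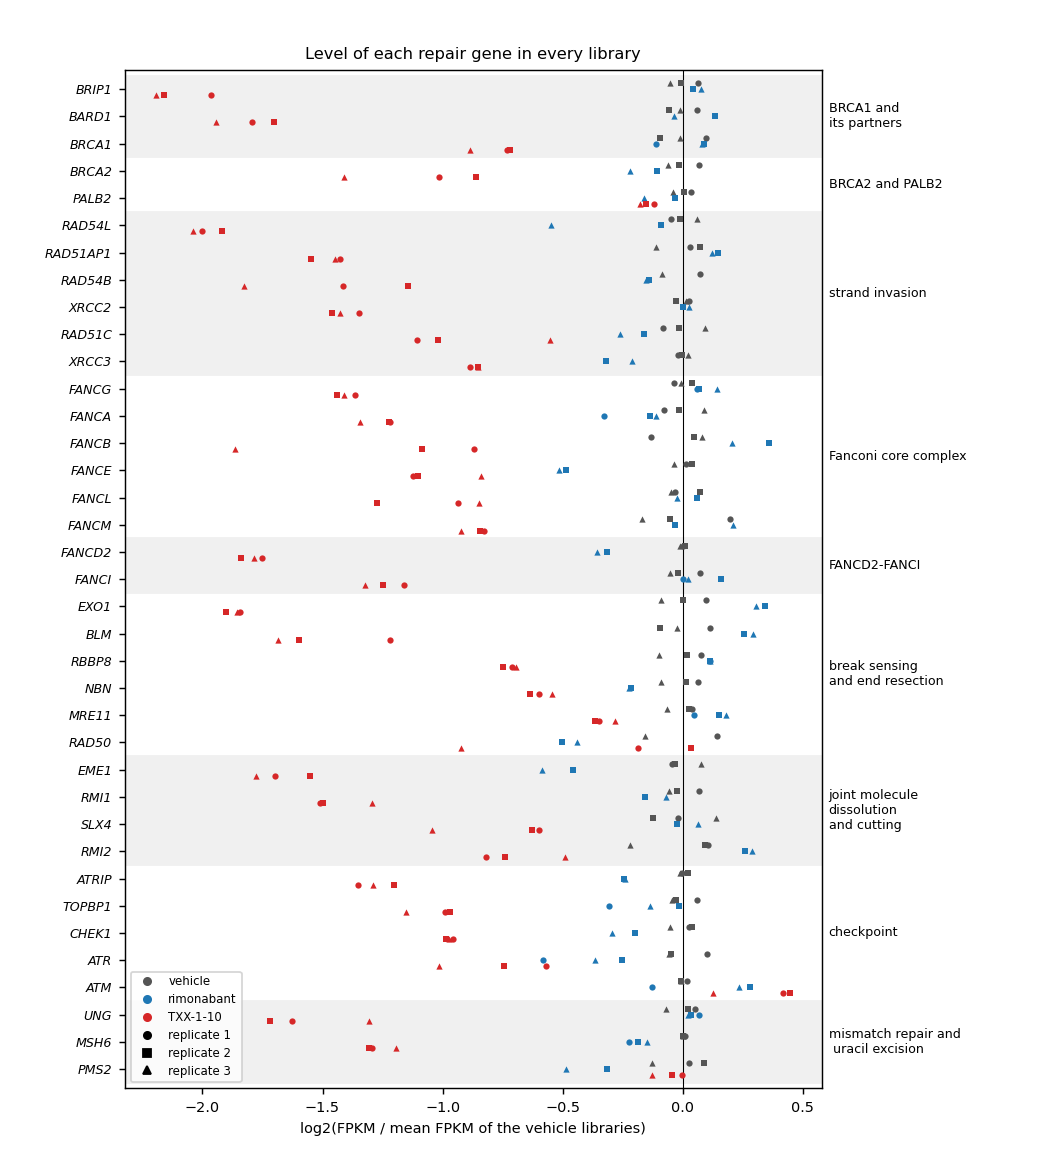
Level of each of the 37 genes in every library that lists it, as the log2 ratio of its FPKM to the mean FPKM of the vehicle libraries, in bands by role; grey points are vehicle, blue rimonabant and red TXX-1-10, and the shape gives the replicate. TXX-1-10 points lie to the left of the vehicle points for 34 genes, those of ATM lie to the right, and those of RAD50 and PMS2 overlap vehicle.

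BRCA1 and its partners BARD1 and BRIP1 all fell, the helicase BRIP1 most. BRIP1, the helicase that binds the BRCT repeats of BRCA1 (chromosome 17, 61681266 to 61863521, minus strand), measured 6.72, 6.40 and 6.20 FPKM in vehicle, 6.64 and 6.78 FPKM under rimonabant, and 1.65, 1.44 and 1.41 FPKM under TXX-1-10. The TXX-1-10 libraries are the low ones and no group overlaps them. Its log2 fold change was -2.10 (SE 0.08, adjusted p = 1.75e-10), the largest of the 37 genes, or 0.233 of the vehicle level. BARD1, which forms the ubiquitin ligase with BRCA1, stood at 5.11 to 5.54 FPKM in vehicle and 1.38 to 1.63 FPKM under TXX-1-10 (log2 fold change -1.81).

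BRCA1 itself (chromosome 17, 43044295 to 43170245, minus strand) is listed in all 9 libraries and moved less. It measured 8.79, 7.69 and 8.14 FPKM in vehicle, 7.60, 8.72 and 8.67 FPKM under rimonabant, and 4.95, 4.99 and 4.44 FPKM under TXX-1-10. The fall under TXX-1-10 was -0.78 on the log2 scale (SE 0.07, adjusted p = 4.16e-07), well short of that of both partners.

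BRCA2 and PALB2, which work as one unit on the processed end, parted. BRCA2 measured 3.56, 3.36 and 3.26 FPKM in vehicle, 3.16 and 2.92 FPKM under rimonabant, and 1.68, 1.87 and 1.28 FPKM under TXX-1-10, which fitted to -1.08 on the log2 scale (SE 0.11, adjusted p = 1.97e-06). The third TXX-1-10 library was the lowest, and without it the change was -0.94. For PALB2 the values were 4.22, 4.13 and 4.01 FPKM in vehicle, 4.03 and 3.68 FPKM under rimonabant, and 3.79, 3.70 and 3.64 FPKM under TXX-1-10. All TXX-1-10 values of PALB2 lay below vehicle, yet by little: the log2 fold change was -0.15 with a 95% interval of -0.32 to 0.01 (adjusted p = 0.0889), so a fall as large as that of BRCA2 lies outside the interval.

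In strand invasion the processed end pairs with the intact duplex. The genes of this step in the set fell in all 5 cases of the 8-library fit. RAD54L, the translocase that drives strand exchange, measured 5.91, 6.07 and 6.38 FPKM in vehicle, 5.74 and 4.18 FPKM under rimonabant, and 1.53, 1.62 and 1.49 FPKM under TXX-1-10 (log2 fold change -1.98, SE 0.13, adjusted p = 2.45e-08). The TXX-1-10 values are close together, while the 2 rimonabant libraries differ from each other. Of the exon bases of RAD54L, 25.1% are shared with other genes, the largest overlap being with LRRC41 on the opposite strand. RAD51AP1, a stimulator of strand invasion, and the paralog XRCC2 changed by -1.47 and -1.41.

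The smallest falls of this group were those of the paralogs XRCC3 and RAD51C, which pair with each other in one complex. XRCC3 measured 5.50, 5.55 and 5.65 FPKM in vehicle, 4.46 and 4.81 FPKM under rimonabant, and 3.01, 3.08 and 3.08 FPKM under TXX-1-10, which fitted to a change of -0.87 (SE 0.06). Of its exon bases, 76.7% are also exon bases of KLC1 on the opposite strand, so its reads are uncertain where counting ignored strand. RAD51C measured 4.19 to 4.74 FPKM in vehicle and 2.06, 2.19 and 3.03 FPKM under TXX-1-10 (log2 fold change -0.87, SE 0.12), and without the third, higher library the change was -1.06. RAD54B, a relative of RAD54L, had only 38 to 61 reads under TXX-1-10 and 119 and 132 in the 2 vehicle libraries that list it. In the 7-library fit, where 36.2% of 11733 genes fell, its log2 fold change was -1.43 (SE 0.18, adjusted p = 2.96e-05), and 59.1% of its exon bases are shared with FSBP on the same strand.

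All 6 genes of the Fanconi core complex in this set, which does not hold the whole complex, fell by -0.86 to -1.40 on the log2 scale. FANCG, an adaptor of the complex (chromosome 9, 35073835 to 35080016, minus strand), measured 22.5, 23.7 and 23.0 FPKM in vehicle, 24.1, 24.2 and 25.5 FPKM under rimonabant, and 8.96, 8.51 and 8.70 FPKM under TXX-1-10. Vehicle and rimonabant lie close together for FANCG and TXX-1-10 lies far below both (log2 fold change -1.40, SE 0.06, adjusted p = 3.86e-10). FANCM, the translocase that brings the complex to stalled forks, moved least of the 6. It went from 3.13, 2.63 and 2.43 FPKM in vehicle to 1.54, 1.52 and 1.44 FPKM under TXX-1-10 (-0.86, SE 0.11, adjusted p = 1.3e-05).

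FANCE, which links the core complex to FANCD2, fell under both compounds. Its values were 11.5, 11.7 and 11.1 FPKM in vehicle, 8.13 and 7.98 FPKM under rimonabant, and 5.24, 5.31 and 6.36 FPKM under TXX-1-10, so that the 3 groups are separate. The change was -0.50 under rimonabant (SE 0.09, adjusted p = 0.000986) and -1.02 under TXX-1-10 (SE 0.09, adjusted p = 3.25e-07). FANCL, the ubiquitin ligase of the complex, FANCA and FANCB changed by -1.01, -1.26 and -1.21 under TXX-1-10. FANCA measured 7.38, 8.43 and 8.57 FPKM under rimonabant, below its 8.77 to 9.85 FPKM in vehicle, and its rimonabant change did not pass the test in the 8-library fit (-0.12, adjusted p = 0.142) but did with all 9 libraries (-0.19, adjusted p = 0.0497). FANCB, on the X chromosome, was uneven: 2.95, 2.54 and 1.48 FPKM under TXX-1-10, with the third library at 0.540 of the mean of the others and a change of -0.97 without it.

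Of the pair that the core complex ubiquitinates, FANCD2 fell further than FANCI. FANCD2 (chromosome 3, 10026414 to 10101930, plus strand) measured 7.32, 7.36 and 7.26 FPKM in vehicle, 5.87 and 5.70 FPKM under rimonabant, and 2.17, 2.04 and 2.12 FPKM under TXX-1-10. Its groups are tight and do not overlap, with log2 fold changes of -0.34 under rimonabant (SE 0.06, adjusted p = 0.000818) and -1.79 under TXX-1-10 (SE 0.06, adjusted p = 9.14e-11). FANCI measured 14.6, 13.7 and 13.4 FPKM in vehicle, 13.9, 15.5 and 14.1 FPKM under rimonabant and 6.21, 5.85 and 5.55 FPKM under TXX-1-10 (-1.24, SE 0.06, adjusted p = 3.57e-09). Rimonabant and vehicle overlap for FANCI, unlike for its partner.

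In break sensing and end resection the falls ranged from large to small. EXO1, the exonuclease of long-range resection that also acts in mismatch repair (chromosome 1, 241847967 to 241895148, plus strand), measured 14, 13.1 and 12.3 FPKM in vehicle, 16.6 and 16.2 FPKM under rimonabant, and 3.65, 3.51 and 3.62 FPKM under TXX-1-10. The rimonabant values stand above all vehicle values and the TXX-1-10 values far below them. It fell by 1.87 on the log2 scale under TXX-1-10 (SE 0.07, adjusted p = 2.14e-10) and rose by 0.32 under rimonabant (SE 0.07, adjusted p = 0.00205). BLM, the helicase of both resection and dissolution, fell by 1.48 under TXX-1-10 (adjusted p = 1.32e-07), from 3.94 to 4.56 FPKM in vehicle to 1.81, 1.39 and 1.31 FPKM.

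The sensor complex moved least. MRE11, its nuclease, measured 8.73, 8.66 and 8.12 FPKM in vehicle, 8.79, 9.44 and 9.62 FPKM under rimonabant, and 6.68, 6.60 and 6.99 FPKM under TXX-1-10. The fall under TXX-1-10 was small, -0.33 on the log2 scale (SE 0.05, adjusted p = 0.000136), though the groups do not overlap. MRE11 rose under rimonabant, by 0.16 (SE 0.06, adjusted p = 0.04), a call that stood in 8 of 20 alternative settings. NBN, the subunit that recruits ATM, measured 12, 11.6 and 10.8 FPKM in vehicle, 9.91 and 9.86 FPKM under rimonabant and 7.60, 7.39 and 7.88 FPKM under TXX-1-10 (-0.21 and -0.59, adjusted p = 0.0162 and 1.32e-06).

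RAD50, the ATPase of the complex, gave no call. It was listed at 0.827 and 0.672 FPKM in vehicle, 0.528 and 0.552 FPKM under rimonabant, and 0.658, 0.768 and 0.395 FPKM under TXX-1-10, with 71 to 138 reads. Vehicle and TXX-1-10 overlap (log2 fold change -0.30, 95% interval -0.80 to 0.20, adjusted p = 0.26 in the 7-library fit). Of its exon bases, 79.7% are shared with AC116366.3 on the same strand, so its low level is uncertain. RBBP8, which starts resection, fell by 0.72 under TXX-1-10 (SE 0.06, adjusted p = 2.17e-07).

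The 4 genes of this set grouped under joint molecule resolution all fell. EME1, the partner of the nuclease MUS81, measured 5.26, 5.30 and 5.71 FPKM in vehicle, 3.95 and 3.61 FPKM under rimonabant, and 1.67, 1.85 and 1.58 FPKM under TXX-1-10. As with FANCE, its 3 groups are separate, with changes of -0.52 (SE 0.10, adjusted p = 0.00112) and -1.67 (SE 0.10, adjusted p = 1.09e-08). The 2 RMI subunits of the BLM complex differed: RMI1 fell by 1.43 on the log2 scale, and RMI2 by 0.68 (SE 0.11, adjusted p = 0.00017). RMI2 measured 5.05, 5.01 and 4.03 FPKM in vehicle, 5.63 and 5.74 FPKM under rimonabant, and 2.66, 2.81 and 3.35 FPKM under TXX-1-10, and both vehicle and TXX-1-10 are spread widely. SLX4, the scaffold of the cutting nucleases, fell by 0.74 (SE 0.11, adjusted p = 7.38e-05).

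The checkpoint genes split by kinase. ATM, the kinase activated at breaks (chromosome 11, 108222484 to 108369102, plus strand), measured 4.78, 4.70 and 4.69 FPKM in vehicle, 4.32, 5.73 and 5.55 FPKM under rimonabant, and 6.30, 6.43 and 5.15 FPKM under TXX-1-10. All TXX-1-10 values lie above vehicle, while the first rimonabant library lies below it. ATM rose by 0.34 under TXX-1-10 (SE 0.07, adjusted p = 0.00126) and by 0.43 without replicate 3, which read low. Under rimonabant the 8-library change was 0.26 (adjusted p = 0.0236), and with all 9 libraries the adjusted p was 0.318.

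ATR, the kinase activated at stalled forks, and its 3 partners in this set fell under TXX-1-10. ATR measured 7.22, 6.51 and 6.47 FPKM in vehicle, 4.49, 5.65 and 5.23 FPKM under rimonabant, and 4.53, 4.02 and 3.33 FPKM under TXX-1-10, so that the first rimonabant library falls within the TXX-1-10 range. Its change was -0.76 under TXX-1-10 (SE 0.09, adjusted p = 1.13e-05) and -0.31 under rimonabant (SE 0.10, adjusted p = 0.0298). ATRIP, which carries ATR to single-stranded DNA, moved most: 3.44, 3.50 and 3.42 FPKM in vehicle, 2.91 and 2.92 FPKM under rimonabant, and 1.35, 1.5 and 1.41 FPKM under TXX-1-10, or -1.28 (adjusted p = 3.17e-08) and, under rimonabant, -0.25 (adjusted p = 0.0343). Its exons share 27.9% of their bases with other genes, mostly TREX1 on the same strand.

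CHEK1, the kinase that ATR activates, measured 11.4, 11.5 and 10.8 FPKM in vehicle, 9.76 and 9.13 FPKM under rimonabant, and 5.77, 5.65 and 5.70 FPKM under TXX-1-10. Its groups step down without overlap, by 0.25 under rimonabant (adjusted p = 0.0051) and 0.98 under TXX-1-10 on the log2 scale (adjusted p = 9.97e-09). TOPBP1, the activator of ATR, fell by 1.03 under TXX-1-10 (SE 0.06, adjusted p = 1.83e-08) and did not pass the test under rimonabant.

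In mismatch repair and uracil excision, UNG and MSH6 fell and PMS2 did not pass the test. UNG, the glycosylase that removes uracil from DNA, had the highest level of the 37 genes: 45.1, 44.1 and 41.4 FPKM in vehicle, 45.6, 44.6 and 44.2 FPKM under rimonabant, and 14.1, 13.2 and 17.6 FPKM under TXX-1-10. Rimonabant and vehicle overlap, and the TXX-1-10 change was -1.54 (SE 0.09, adjusted p = 1.08e-08). MSH6, a subunit of a mismatch sensor, measured 13.3, 13.2 and 13.2 FPKM in vehicle, 11.3, 11.6 and 11.9 FPKM under rimonabant, and 5.38, 5.33 and 5.77 FPKM under TXX-1-10, changes of -0.18 (adjusted p = 0.0202) and -1.27 (adjusted p = 4.22e-10).

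PMS2, an endonuclease subunit of mismatch repair, was the exception in this group. It measured 5.21, 5.45 and 4.69 FPKM in vehicle, 4.11 and 3.66 FPKM under rimonabant, and 5.11, 4.96 and 4.69 FPKM under TXX-1-10. TXX-1-10 overlaps vehicle (log2 fold change -0.06, 95% interval -0.24 to 0.13), while rimonabant lies below both (-0.40, SE 0.10, adjusted p = 0.00623, and 0.0781 without rimonabant replicate 3). GENCODE 29 names 10 pseudogenes of PMS2, near copies of parts of the gene, so its reads are uncertain.

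**Figure D2:**
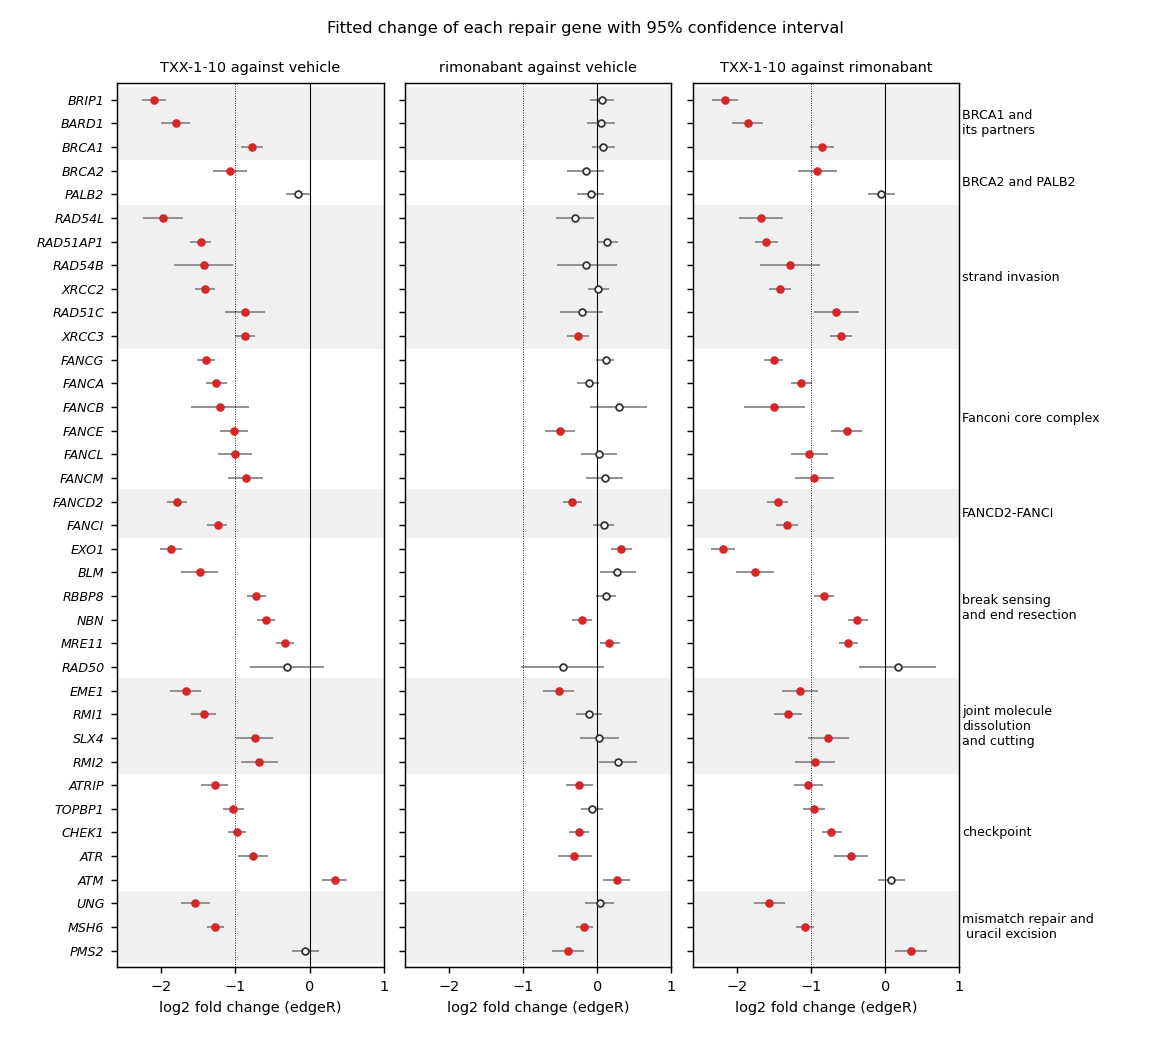
Fitted log2 fold change of each gene with its 95% interval in the 3 comparisons (left to right: TXX-1-10 against vehicle, rimonabant against vehicle, TXX-1-10 against rimonabant); red points passed an adjusted p of 0.05, open points did not, and the dotted line is a 2-fold fall. RAD54B and RAD50 come from the 7-library fit. In the left panel 21 genes of the 8-library fit reach a 2-fold fall, and in the middle panel none does.

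Changes under rimonabant were small in size, each less than 2-fold. Against vehicle, 10 of the 35 fell (XRCC3, FANCD2, FANCE, NBN, ATR, ATRIP, CHEK1, MSH6, PMS2 and EME1), or 28.6%, beside 22.8% of all genes, and 3 rose (EXO1, MRE11 and ATM), or 8.57%, beside 23.7% of all genes. The share that fell is near that of all genes and the share that rose is below it. The median log2 fold change was 0.01, and its extremes were -0.52 for EME1 and 0.32 for EXO1. With edgeR, no gene of the set reached a 2-fold fall, which 0.777% of all genes did.

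The rimonabant counts lean on single libraries. Genes that fell numbered 6 without vehicle replicate 1, vehicle replicate 2 or rimonabant replicate 2, 4 without rimonabant replicate 3, and 14 without TXX-1-10 replicate 3. The share of all genes that fell moved as well, from 22.8% to between 14.8% and 31.0%, and was highest without TXX-1-10 replicate 3. Genes that rose numbered 1 without any one of the 3 vehicle or the 2 rimonabant libraries and 7 without TXX-1-10 replicate 3, where 30.9% of all genes rose. FANCD2, FANCE, EME1 and EXO1 kept their calls in all 19 alternatives that could be fitted for them. XRCC3, CHEK1 and PMS2 kept theirs in 18 of 19, NBN in 14 of 19 and ATRIP in 12 of 19. MSH6 kept its call in 15 of 20, ATR and ATM in 14 of 20 and MRE11 in 8 of 20.

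TXX-1-10 and rimonabant, the parent compound it derives from, share the vehicle libraries, so their changes are given side by side and the direct contrast is the test between them. EXO1 and MRE11 were called in opposite directions, lower under TXX-1-10 (-1.87 and -0.33) and higher under rimonabant (0.32 and 0.16). PMS2 was called under rimonabant (-0.40) and not under TXX-1-10 (-0.06).

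In the direct contrast, TXX-1-10 stood below rimonabant in 32 genes, beside 33.8% of all genes, and 18 of them by at least 2-fold, beside 4.32%. The median log2 difference was -1.03. EXO1 differed most (-2.19, SE 0.07, adjusted p = 6.04e-10), then BRIP1 (-2.16) and BARD1 (-1.86). FANCE, NBN and ATR, which fell under both, still differed by -0.52, -0.38 and -0.46 (adjusted p = 0.000586, 0.000293 and 0.00248). PMS2 was higher under TXX-1-10 by 0.34 (SE 0.10, adjusted p = 0.00983), where 26.6% of all genes were higher, but by 0.26 without rimonabant replicate 3, when the call was lost (adjusted p = 0.107). For PALB2 the difference was -0.06 (95% interval -0.24 to 0.13) and for ATM 0.08 (-0.10 to 0.26). Without TXX-1-10 replicate 3 the ATM difference was 0.17 and passed the test (adjusted p = 0.00142). RAD54B was lower by 1.29 on the log2 scale in the 7-library fit (adjusted p = 0.000125), beside 29.9% of its genes.

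Other genes of the same pathways, from a list of 64, moved less as a group. Of the 51 tested, 31 fell and 8 rose under TXX-1-10, 9 fell by at least 2-fold, and the median log2 fold change was -0.35. The share that fell was 60.8%, beside 40.6% of all genes. Both this list and the 37 genes were chosen with earlier results of these data known, so the difference between them is description only. POLQ, the polymerase of microhomology end joining, and CLSPN, the ATR-to-CHEK1 adaptor, changed most (-2.01 and -1.86), while MUS81, the nuclease partner of EME1, and the helicase RECQL5 changed least (-0.05 and 0.01). Under rimonabant 5 of the 51 fell (9.8%) and 13 rose, where 22.8% of all genes fell and 23.7% rose.

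Genes of other repair routes were mixed under TXX-1-10. For end joining, 5 of 9 tested genes (55.6%) fell and 2 rose (median -0.54), led by PRKDC, the catalytic subunit of DNA-dependent kinase, at -1.40, while LIG4, the ligase of that route, rose by 0.69 (adjusted p = 3.65e-06). For base and nucleotide excision repair, 13 of 28 (46.4%) fell and 5 rose (median -0.14), with PARP1, the poly(ADP-ribose) polymerase of strand breaks, at -1.61 and ERCC2, a helicase of TFIIH, at -1.18. The glycosylase TDG and UVSSA of transcription-coupled repair stood at 0.01 each. Of all genes 40.6% fell and 34.6% rose, so the share that fell in excision repair is near that background. These medians and counts describe the lists, and no test set one list against another.

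Under rimonabant the cell cycle markers did not move as one. Of the 32 S phase markers 9 fell (28.1%) and 7 rose (median -0.08), where 22.8% of all genes fell and 23.7% rose. The S phase share that fell is near that of all genes. Of the G2 and M phase markers 34 of 41 fell (82.9%) and none rose (median -0.40). Summed G2 and M phase markers stood at 1510 to 1540 FPKM in 2 rimonabant libraries, below the vehicle range, while the summed repair genes overlapped vehicle.

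How far a gene fell under TXX-1-10 was loosely related to its level and length. Across the 35 genes, which share libraries and are not independent, the log2 fold change had a Pearson's r of -0.265 and a Spearman's rho of -0.263 with the logarithm of the vehicle FPKM, and of 0.419 and 0.284 with gene length. Over all 9395 genes Spearman's rho with length was 0.0404. Pearson's r was 0.0375 there, but it was taken on the logarithm of length, and for the 35 genes on length in bases. The longest gene is ATM, at 23972 bases, and BRIP1 is 7991 bases long.

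TXX-1-10 replicate 3 departed from the other TXX-1-10 libraries, and longer genes tended to read lower in it. Its FPKM relative to the mean of replicates 1 and 2 correlated with gene length at a Spearman's rho of -0.478 across the 35 genes and -0.619 across all genes. Ratios were lowest for FANCB (0.540), RAD50 (0.554), RAD54B (0.681), BRCA2 (0.723) and SLX4 (0.742), and highest for RAD51C (1.42) and UNG (1.29). Single genes did not all follow length: FANCB is 3593 bases long and RAD51C 6068. The cause of these deviations was not tested. Without that library the counts stayed at 32 fallen and 1 risen, with 19 fallen by at least 2-fold. With all 9 libraries, where 11 of the genes could be tested, 10 fell and ATM rose under TXX-1-10 (43.8% of 4236 genes fell and 30.5% rose), 3 fell under rimonabant (25.2%) and 10 were lower in the direct contrast (39.4%). After a correction for length the count of genes that fell under TXX-1-10 was also 32, and ATM stood at 0.42 (adjusted p = 2.71e-07).

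**Figure D3:**
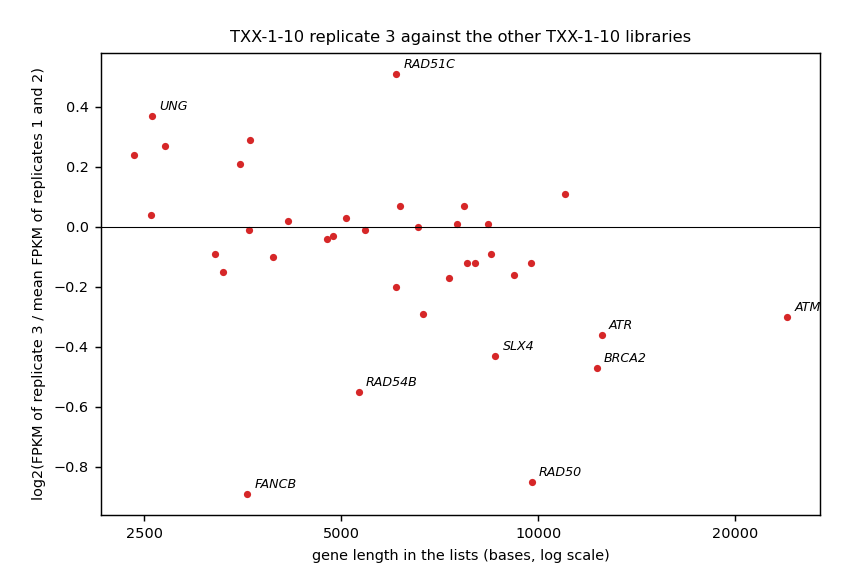
Log2 ratio of the FPKM in TXX-1-10 replicate 3 to the mean of TXX-1-10 replicates 1 and 2, for each of the 37 genes, against gene length in bases on a log axis. Long genes such as BRCA2, ATR and ATM lie below 0, FANCB and RAD50 are lowest, and RAD51C is highest.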

How the data were processed

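RNA was selected with oligo(dT) and made into libraries with a NEBNext Ultra kit, and 9 libraries were analysed. The authors deposited read counts per gene and FPKM values. The submitters' processing notes name HISAT2 2.0.5 and featureCounts 1.5.0-p3. Gene positions and exon lengths match GENCODE 29 on GRCh38, and the strand setting is not given in the sources used here. Exon bases shared with other genes came to 23.6% for FANCA, 19.7% for FANCL, 16.4% for ATR, 16.4% for EME1 and 16.2% for MSH6. The last, cut line of each list was left out. Library size was the total behind the FPKM values the authors deposited. Counts were tested with edgeR 4.0.16 (quasi-likelihood, common biological coefficient of variation 0.0605) in genes listed for 8 libraries with a mean count of at least 10, with all 3 groups in one fit, and a gene was called at a Benjamini-Hochberg adjusted p under 0.05. A 7-library and a 9-library fit (11733 and 4236 genes) reached the genes or library left out. The test was also tried on simulated counts, with means and spread taken from the main data and fit. The 37 genes and all other lists were chosen with earlier results of these data known. Each was described in full if it changed most or least in its role group, was called under rimonabant or moved in opposite directions. Alternatives were TMM, DESeq2 1.42.0, limma 3.58.1 on log2(FPKM + 1) and log2(FPKM + 0.1), other filters, a length correction, a replicate block and leaving out each library. Counting reads without molecular identifiers limits precision, and the low reads of RAD50 and RAD54B carry most of that error. The values of some single genes of these pathways are not reported here.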

Additional observations from a re-analysis of the deposited data

How the results depend on the processing

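Under TXX-1-10 against vehicle, every called gene kept its direction and its call in each alternative that could be fitted for it, and PALB2 and PMS2 stayed without a call (PMS2 between -0.11 and 0.08 on the log2 scale): 32 genes fell and 1 rose when any library was left out, and 19 to 22 fell by at least 2-fold (15 to 21 under other settings, with 15 from limma at a pseudocount of 1). With all 9 libraries 11 of the genes could be tested, of which 10 fell (6 by at least 2-fold) and 1 rose under TXX-1-10, 3 fell and 0 rose under rimonabant (edgeR), and in the direct contrast TXX-1-10 was lower for 10 genes and higher for 0 (at an unadjusted p under 0.05, 1 gene was higher under rimonabant than vehicle and 0 in the contrast), with medians of 0.04 for rimonabant and -0.89 for the direct contrast; fewer genes were tested there by construction. The rimonabant calls were the least stable: leaving out 1 library gave 4 to 14 that fell and 1 to 7 that rose, the sum of tested counts as library size gave 6 and 8, the 2 groups alone gave 6 that rose, and the length correction gave 5. Between the compounds, leaving out 1 library gave 0 to 2 genes higher under TXX-1-10, 0 without rimonabant replicate 3 (also 0 at an unadjusted p under 0.05). Leaving out 1 library moved the medians to between -1.19 and -1.04 for TXX-1-10, -0.04 and 0.01 for rimonabant and -1.06 and -1.0 for the contrast. The sum of tested counts shifts the median of all genes by 0.138 for TXX-1-10 and by 0.074 for rimonabant against vehicle. The medians of the set were then -0.93 and 0.08. At a pseudocount of 1, limma gave -0.91 for TXX-1-10 and -0.82 for the contrast, and the length correction gave -0.01 for rimonabant. The cause of these shifts was not tested.

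Same-numbered TXX-1-10 and vehicle libraries did not deviate together (correlations of -0.0781, -0.0339 and -0.0857), and the 2 rimonabant libraries give a single difference, which correlated at 0.101 with that of vehicle and 0.432 with that of TXX-1-10; the libraries are not treated as paired. With a replicate block 32 genes fell and 1 rose under TXX-1-10, 10 fell and 3 rose under rimonabant, and in the direct contrast 32 were lower and 1 higher. RAD50 and RAD54B, with 38 to 138 reads per library, are limited by depth.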
